A study of Homo sapiens with 12 samples.

Results

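The expression of 42 lysosomal genes was followed in T47D cells, an estrogen receptor positive human breast cancer cell line, as part of a deposited table of 25370 genes. The genes were chosen by symbol and fall into 6 roles: 10 cathepsin proteases and related peptidases, 11 glycosidases and sulfatases, 7 lipid hydrolases, activators and cholesterol transfer proteins, 6 membrane proteins, 2 regulators of lysosome formation and 6 subunits of the proton pump V-ATPase. The question was whether the pattern of CTSD, whose level was already known from these data to be higher with anastrozole plus estradiol than with estradiol alone, extended to other genes of the same organelle. All 42 symbols were found and had reads.

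The treatments, 4 in all, each with 3 libraries lettered a, b and c, were compared: vehicle, anastrozole at 10 nM, estradiol (E2) at 0.1 nM, and anastrozole at 10 nM together with E2 at 0.1 nM. Anastrozole is an aromatase inhibitor, and the study compared the genes it regulates with those that E2 regulates. Every group, vehicle included, was first kept for 48 h in medium with 5% charcoal-stripped serum and then for 24 h without serum. The labels give 12 h of treatment, whereas the methods of the study give a longer time. Nothing in the labels says whether the libraries of a group came from separate cultures, so the p-values measure the spread between libraries, which may be technical. The libraries held 9914253 to 17009776 reads on genes. The 12 luminal epithelial markers summed to between 11805 and 12995 CPM (read counts scaled to a common library size) in every library, whereas the 9 leukocyte and macrophage markers summed to 5.93 to 9.54 CPM, with 4 of them at or under 3 counts in every library, CD163 at 0 among them. The 10 fibroblast and endothelial markers summed to 80.5 to 100.4 CPM, and 6 of them were at or under 3 counts in every library.

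Lysosomes are acidic compartments in which proteins, glycans and lipids are broken down. The V-ATPase pumps protons into the lumen, soluble hydrolases do the digestion, and glycosylated membrane proteins line the inner face and carry products out. Many of these genes carry a short promoter element through which the transcription factor TFEB and its relatives can raise them together in starved or stressed cells. CTSD encodes cathepsin D, an aspartic protease long studied as an estrogen-induced gene in breast cancer cells.

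Promoter windows of 300 bases, from 250 before to 50 after an annotated start, were taken from RefSeq (GRCh38.p14) to show which members carry that element. A window was found for 30 of the 42 members. The E-box core CACGTG, which reads the same on both strands, was present in a window of 11 of these 30 genes (36.7%), against 7.2% of all 34796 windows of the same length. Genes with several annotated starts were counted once, if any of their windows held the letters, whereas the background is a share of windows. The 11 genes were CTSA, CTSD, CTSF, GAA, NEU1, ARSB, LAMP1, CD63, MCOLN1, CLN3 and ATP6V0D1. The longer CLEAR form, CACGTG with GT before it and AC after it, contains the E-box and was found in GAA and MCOLN1, that is in 2 of 30 genes (6.67%) against 0.35% of windows. The palindromic estrogen response element (GGTCA, then any 3 bases, then TGACC) was in 0.0575% of all windows and in 0 of the 30 members, which says only that these letters are not in these windows. The GC box GGGCGG, searched on both strands, was in 24 of 30 members (80%) against 44.9% of windows. These 3 windows are shown because CTSD and GAA had the most similar pattern over the 12 libraries and CLN3 was lower in every treated group, with CACGTG in capitals and the coding strand read from 5′ to 3′. The windows lie at chr11:1763878-1764177 on the minus strand for CTSD, chr17:80101331-80101630 on the plus strand for GAA and chr16:28492025-28492324 on the minus strand for CLN3.
CTSD: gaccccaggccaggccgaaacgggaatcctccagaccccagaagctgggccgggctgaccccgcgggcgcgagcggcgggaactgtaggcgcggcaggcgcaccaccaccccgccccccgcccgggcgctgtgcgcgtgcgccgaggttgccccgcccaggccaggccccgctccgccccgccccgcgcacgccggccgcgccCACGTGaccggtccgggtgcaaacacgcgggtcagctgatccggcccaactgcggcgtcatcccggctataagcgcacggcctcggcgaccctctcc
GAA: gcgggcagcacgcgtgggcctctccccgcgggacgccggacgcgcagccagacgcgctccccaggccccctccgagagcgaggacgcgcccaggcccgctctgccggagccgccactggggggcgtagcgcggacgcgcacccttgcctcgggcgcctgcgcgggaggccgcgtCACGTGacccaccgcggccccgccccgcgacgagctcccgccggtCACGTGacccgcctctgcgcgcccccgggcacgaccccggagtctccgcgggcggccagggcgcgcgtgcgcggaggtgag
CLN3: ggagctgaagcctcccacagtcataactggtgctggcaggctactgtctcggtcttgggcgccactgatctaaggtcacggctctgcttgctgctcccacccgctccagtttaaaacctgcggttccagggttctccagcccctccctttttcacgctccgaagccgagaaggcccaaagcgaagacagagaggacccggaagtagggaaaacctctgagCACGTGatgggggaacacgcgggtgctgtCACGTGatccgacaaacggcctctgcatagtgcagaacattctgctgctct

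The CTSD window held 1 E-box, beginning 47 bases before the start, and 5 GC boxes. The GAA window held 2 copies of the CLEAR form, the first beginning 76 bases before the start. The CLN3 window held 2 E-boxes without the longer flanks, the first beginning 30 bases before the start. GC made up 77.3% of the CTSD window, 81.3% of the GAA window and 58.3% of the CLN3 window.

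Per kilobase of canonical transcript, vehicle cells held the most CTSD, at 395 ± 13.2 CPM per kb (SD, n = 3). It was followed by CD63, a tetraspanin of late endosomes and lysosomes, at 241 ± 7.88 CPM per kb, then by GRN (progranulin) at 208 ± 9.42 and PSAP (prosaposin, precursor of the saposins) at 206 ± 4.79. GRN and PSAP did not differ beyond their spread. The V-ATPase subunits of the cytosolic sector stood close together, ATP6V1A at 38.5 ± 1.07, ATP6V1B2 at 42.1 ± 1.22 and ATP6V1H at 44.7 ± 0.53 CPM per kb. The membrane sector subunits lay on either side of them, ATP6V0D1 at 50.9 ± 0.30 and ATP6V0A1 at 23.4 ± 0.34. The lowest members were TFEB at 4.05 ± 0.04, ARSB at 1.14 ± 0.13 and CTSS at 0.22 ± 0.02 CPM per kb. CTSS, the cathepsin of antigen-presenting cells, held between 2 and 21 reads in a library, so that in anastrozole replicate b it lay under the floor of 3 counts, and a change in it was not detectable at this depth.

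**Figure D1:**
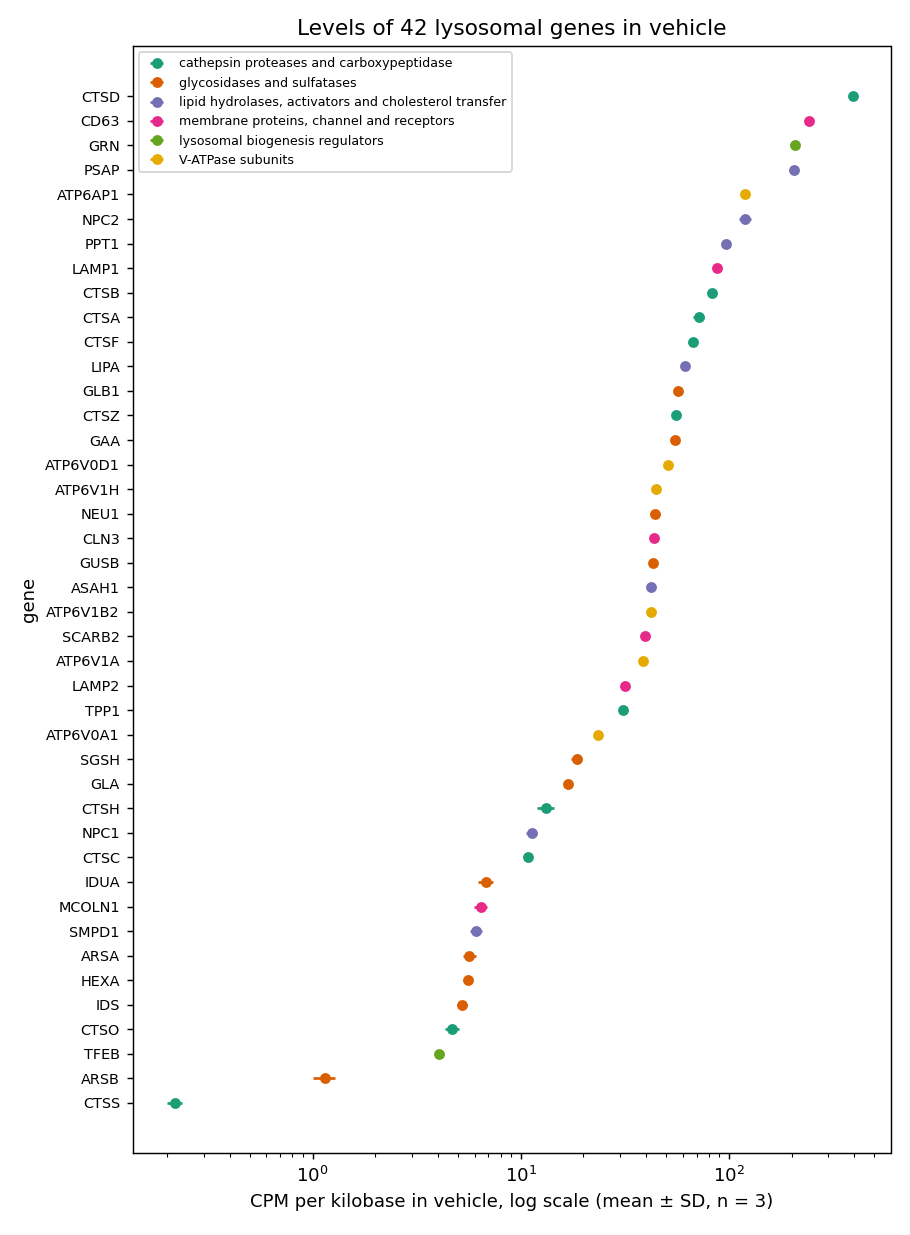
Levels of the 42 genes in vehicle as CPM per kilobase of canonical transcript on a log axis (point, mean; bar, SD, n = 3), coloured by role. CTSD is highest at 395 and CTSS lowest at 0.22 CPM per kb.

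The first comparison set the combination against E2 alone, where CTSD was higher by 0.24 on the log2 scale (SE 0.03, a fold of 1.18). In bulk RNA a lower number of cells that express a gene and less of its RNA per cell cannot be told apart. Of the 42 genes, 10 passed an adjusted p under 0.05 (edgeR quasi-likelihood test, Benjamini-Hochberg over all 21132 genes with a read), and they split evenly, 5 higher and 5 lower. Without CTSD, 4 of 41 were higher and 5 of 41 lower. The 5 higher genes were hydrolases and GRN, and the 5 lower genes were a lipase, a cholesterol transfer protein, membrane proteins and a V-ATPase subunit. Of all genes tested, 3.23% were called higher and 3.51% lower. Calls were more frequent among well expressed genes, at 5.88% higher and 6.62% lower of the 11051 genes whose mean over the libraries reached 3 log2 CPM, and at 8.91% higher and 14.6% lower of the 3885 genes that reached 6. Of the 26 members in this last class other than CTSD, 3 were called higher and 5 lower. The 10 fibroblast and endothelial markers moved with this comparison, at a summed 80.5 to 91.3 CPM in E2 and 95.2 to 100.4 CPM in the combination. Nearly all of that sum was COL1A1, a collagen chain, since the other 9 markers summed to 0.47 to 1.04 CPM in E2 and 0.50 to 0.93 CPM in the combination. The median difference over the 42 genes was 0.03 on the log2 scale and 22 of them lay above 0, against a median of 0.00 over all genes tested.

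Every one of the 10 called genes had 3 libraries of the combination on one side of all 3 libraries of E2 alone. That separation was also seen in 9 members that were not called, so that in all 12 members lay wholly above and 7 wholly below. With 3 libraries a side some genes separate by order alone. The share of all genes that did so is not given here, so these counts are no trait of the set.

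**Figure D2:**
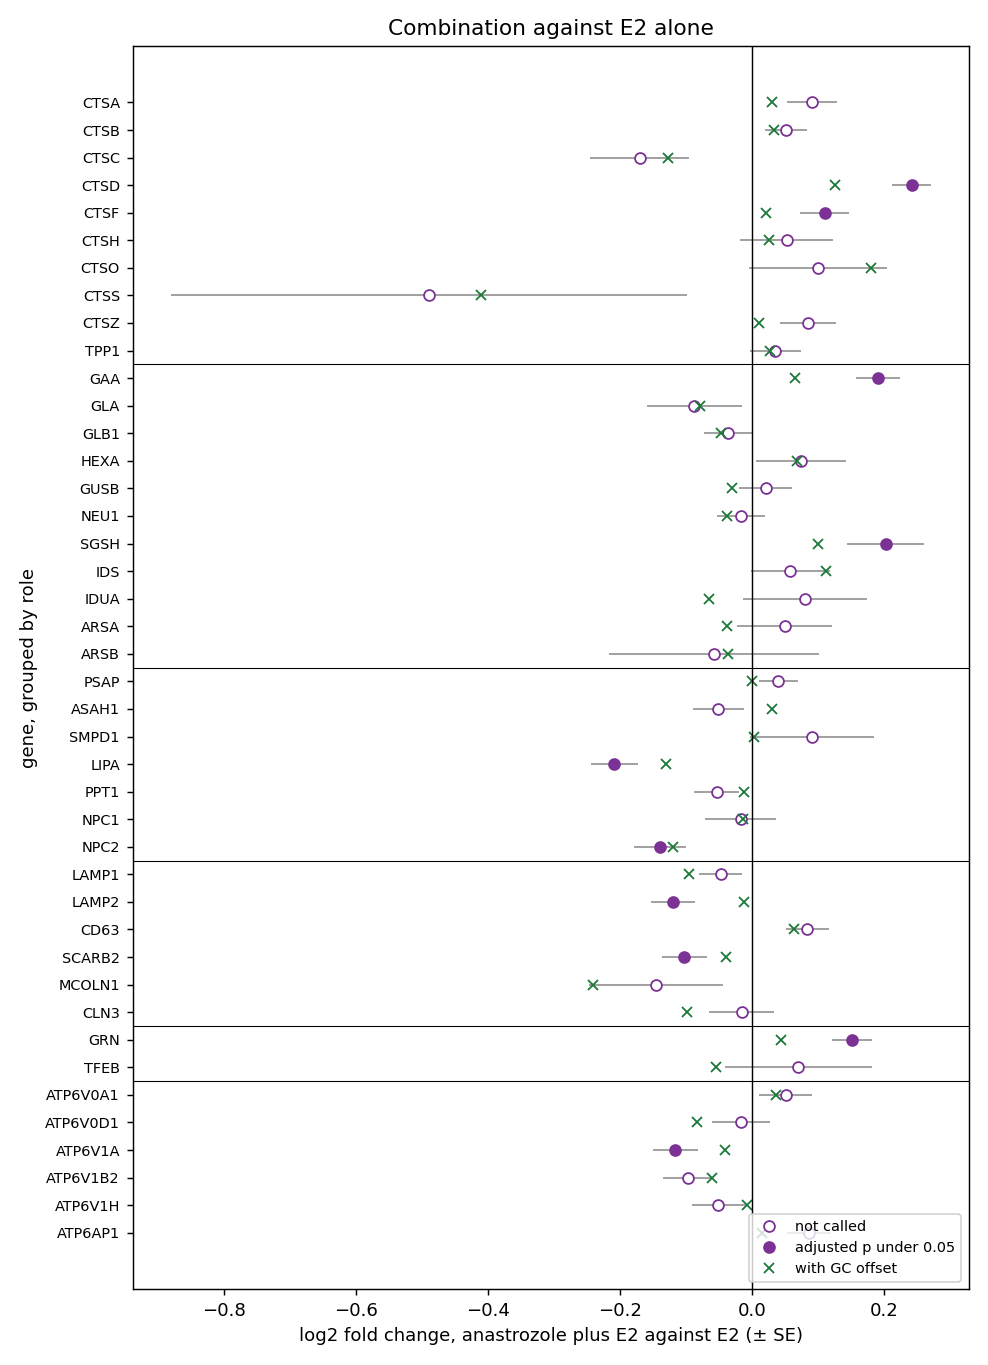
Log2 fold change of each gene for anastrozole plus E2 against E2 (circles, bars ± SE, n = 3 per group; filled where the adjusted p was under 0.05) and the value after an offset for GC content (crosses), in blocks by role. Filled circles lie on both sides of 0, and with the offset LIPA remained called at -0.13, beside CTSD at 0.13.

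GC content moved with these differences, and the values are given here because they touch each result below. Over 10862 genes with at least 3 log2 CPM and a known transcript GC content, the log2 fold change of the combination against E2 correlated with GC content with Spearman's rho of 0.69, and over the 42 members with rho of 0.67. These are correlations across genes, which share libraries and are no independent replicates. The 5 higher members had transcripts of 60.1 to 64.8% GC and the 5 lower members of 36.0 to 47.5% GC. The trend was a property of whole libraries: genes at 62% GC relative to genes at 40% GC stood lower in all 3 E2 libraries, by -0.07 to -0.13 on the log2 scale, and higher in all 3 libraries of the combination, by 0.07 to 0.10. In vehicle this contrast ran from 0.02 to 0.14, and in anastrozole it was -0.20, -0.09 and 0.07 in replicates a, b and c. When the trend of each library was removed by an offset, CTSD stood at 0.13 and 1 of the other 41 members was called between the combination and E2, LIPA at -0.13 (adjusted p = 0.0203, edgeR), and the median of the 42 was -0.01. The shares of all genes called are given in this report for fits without the offset only. Counts of members called with the offset therefore have no such share beside them. Whether the trend arose in the cells or in the libraries was not tested.

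**Figure D3:**
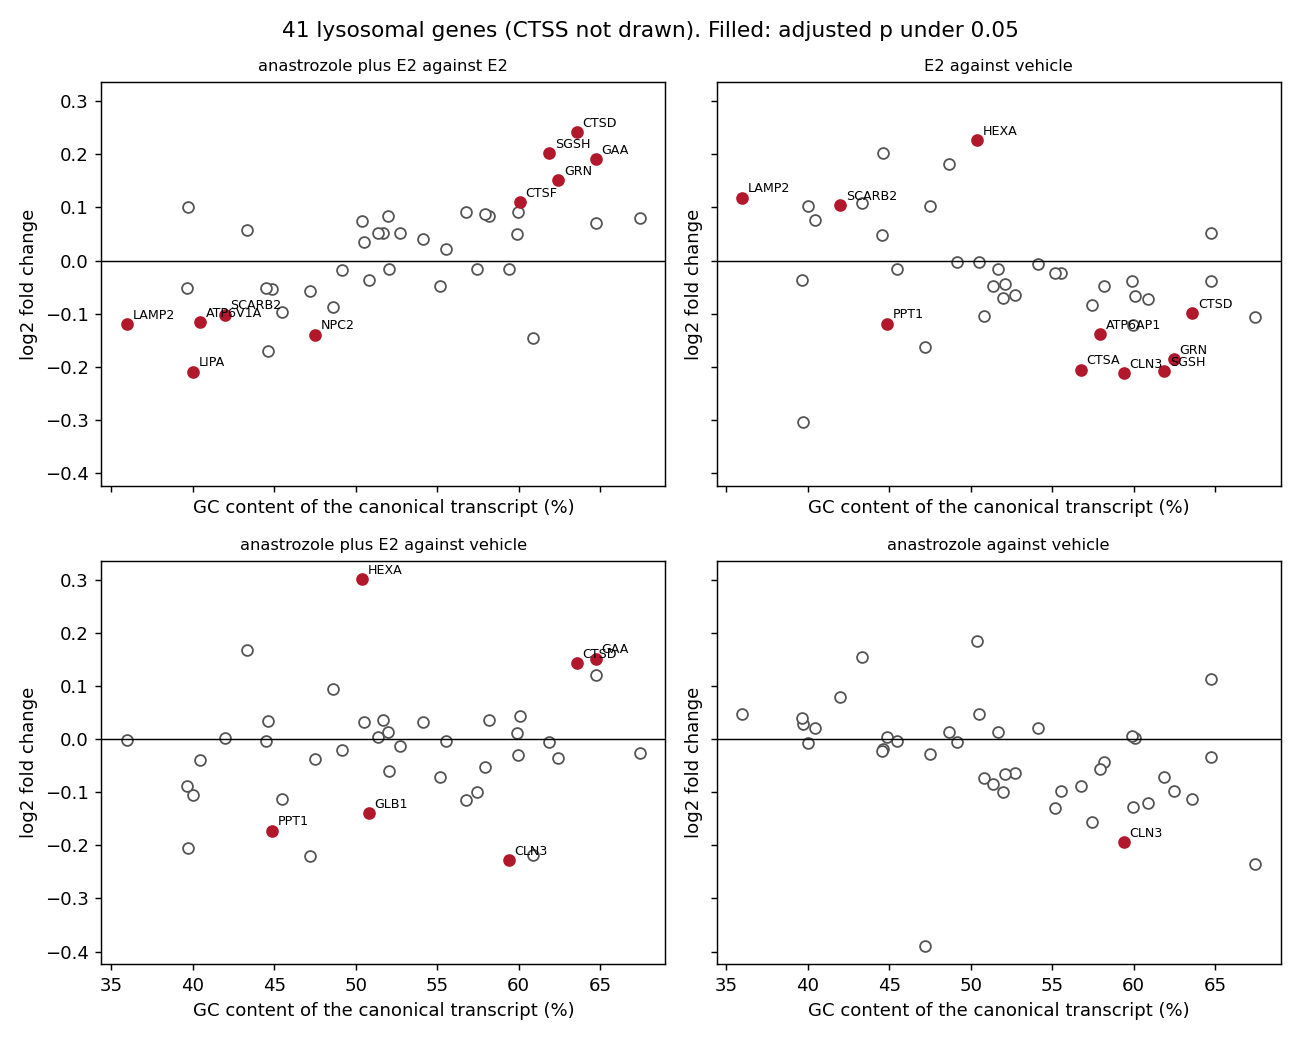
Log2 fold change against GC content of the canonical transcript for 41 genes in 4 comparisons (CTSS, near the detection floor, not drawn; filled, adjusted p under 0.05). Points rise with GC content for the combination against E2 and fall with it for E2 against vehicle, whereas the combination against vehicle shows no such slope over all genes (rho of -0.03).

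Among the proteases other than CTSD, 1 of 9 rose with the combination over E2 and the median of the 9 was 0.05. CTSD read 830, 780 and 824 CPM in vehicle replicates a, b and c, 693, 758 and 802 in anastrozole, 750, 767 and 756 in E2, and 894, 908 and 885 in the combination. The combination was therefore above every other library, and the anastrozole libraries were spread most widely. Since this difference was the starting point of the set, it is given as a description, and it was 0.23 to 0.25 when any of the 6 libraries was left out. Of the exon bases of CTSD, 62.1% are shared with a readthrough gene model on the same strand and 7.30% with a gene on the opposite strand (GENCODE v44 lifted to GRCh37, where the gene lies on chromosome 11 from 1773982 to 1785803 on the minus strand), and how the counting treated strand is not given in the sources used here. Neither overlapping model has a row under its name in the deposited table.

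CTSF, a cysteine protease, read 129, 134 and 129 CPM in E2 and 145, 140 and 139 in the combination, with vehicle at 135, 132 and 145 and anastrozole at 133, 137 and 142. The difference over E2 was 0.11 (SE 0.04, adjusted p = 0.0422, edgeR) and was called in 1 of 6 fits with a library left out. With the GC offset it was 0.02 (adjusted p = 0.917, edgeR). The combination and E2 did not overlap, and vehicle overlapped both. CTSB, the most abundant cysteine cathepsin here, was at 318 ± 2.29 CPM in the combination and 307 ± 5.73 CPM in E2 (SD, n = 3), a difference of 0.05 that missed the threshold. CTSA, CTSH, CTSO, CTSZ and TPP1 had differences of 0.04 to 0.10 and CTSC and CTSS of -0.17 and -0.49, none past the threshold.

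Among the glycosidases and sulfatases, GAA and SGSH were higher in the combination than in E2 and the other 9 did not pass, with differences from -0.09 for GLA to 0.08 for IDUA. GAA, the acid alpha-glucosidase that degrades glycogen, read 211, 201 and 206 CPM in vehicle, 181, 206 and 218 in anastrozole, 205, 196 and 200 in E2, and 228, 237 and 222 in the combination. All 3 libraries of the combination stood above all 9 others. The difference over E2 was 0.19 (SE 0.03, adjusted p = 3.34e-06, edgeR) and was called in all 6 fits with a library left out, but was 0.07 (adjusted p = 0.502) with the GC offset. SGSH, the sulfamidase of heparan sulfate breakdown, read 47.5, 41.8 and 41.7 CPM in E2 against 48.7, 51.5 and 50.04 in the combination, with vehicle at 50.1, 47.2 and 53.4 and anastrozole at 44.1, 48.4 and 51.4. It differed by 0.20 (SE 0.06, adjusted p = 0.0124), in 3 of 6 fits with a library left out, and by 0.10 (adjusted p = 0.631) with the offset. For SGSH the combination lay within the vehicle range, and E2 replicates b and c were below every other library, whereas E2 replicate a was above vehicle replicate b.

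Of the 7 lipid-handling genes, LIPA and NPC2 were lower in the combination than in E2 and the other 5 did not pass. LIPA, the acid lipase that frees cholesterol from its esters, read 153, 155 and 154 CPM in vehicle, 159, 152 and 147 in anastrozole, 165, 167 and 163 in E2, and 138, 147 and 143 in the combination. E2 was above and the combination below all 3 vehicle libraries. The difference between them was -0.21 (SE 0.04, adjusted p = 1.88e-06, edgeR), called in all 6 fits with a library left out. NPC2, which carries cholesterol within the lumen, read 108, 106 and 103 CPM in E2 and 102, 91.8 and 93.9 in the combination, and 104, 91.7 and 99.3 in vehicle and 96.9, 99.6 and 92.8 in anastrozole. Its difference was -0.14 (SE 0.04, adjusted p = 0.0119), called in 2 of 6 such fits, and -0.12 (adjusted p = 0.127) with the offset. The membrane partner NPC1 was at 53.1 ± 1.18 CPM in the combination and 53.6 ± 2.78 CPM in E2 (SD, n = 3), a difference of -0.02 (SE 0.05). PSAP, ASAH1, SMPD1 and PPT1 had differences of -0.05 to 0.09.

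Of the 6 membrane proteins, LAMP2 and SCARB2 were lower in the combination than in E2. LAMP2, a major glycoprotein of the lysosomal membrane with a role in autophagy, read 229, 227 and 221 CPM in E2 and 200, 215 and 208 in the combination, close to vehicle at 203, 213 and 208, while anastrozole read 226, 212 and 206. Its difference was -0.12 (SE 0.03, adjusted p = 0.00914, edgeR), called in 4 of 6 fits with a library left out, and -0.01 with the offset. SCARB2, an integral protein of the lysosomal membrane, read 199, 201 and 196 CPM in E2 and 184, 186 and 186 in the combination, against 177, 193 and 186 in vehicle and 197, 200 and 190 in anastrozole. Its difference was -0.10 (SE 0.03, adjusted p = 0.0403), called in 1 of 6 such fits, and -0.04 with the offset. LAMP1, the paralog of LAMP2, differed by -0.05 (SE 0.03, adjusted p = 0.493) between the same groups. CD63, CLN3 and the calcium channel MCOLN1 did not pass either, at 0.08, -0.02 and -0.15.

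GRN, a secreted and lysosomal glycoprotein, read 466, 431 and 432 CPM in vehicle, 385, 414 and 443 in anastrozole, 400, 378 and 390 in E2, and 447, 434 and 416 in the combination. Its difference over E2 was 0.15 (SE 0.03, adjusted p = 0.00011, edgeR), called in all 6 fits with a library left out, and 0.04 (adjusted p = 0.706) with the offset. All 3 E2 libraries lay below every library of vehicle and of the combination. TFEB itself was at 10.2 ± 1.39 CPM in the combination and 9.84 ± 0.63 CPM in E2 (SD, n = 3), and its difference of 0.07 had an SE of 0.11.

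Of the V-ATPase subunits 1 of 6 passed. ATP6V1A, the catalytic subunit, read 188, 184 and 185 CPM in E2 and 169, 176 and 169 in the combination, against 181, 172 and 176 in vehicle and 187, 176 and 173 in anastrozole. It differed by -0.12 (SE 0.03, adjusted p = 0.0163, edgeR), in 3 of 6 fits with a library left out, and by -0.04 with the offset. The other cytosolic sector subunits pointed the same way without passing, ATP6V1B2 at -0.10 (adjusted p = 0.112, edgeR) and ATP6V1H at -0.05. The accessory subunit ATP6AP1 was at 0.09 (adjusted p = 0.0918, edgeR). The membrane sector subunits ATP6V0A1 and ATP6V0D1 were at 0.05 and -0.02.

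**Figure D4:**
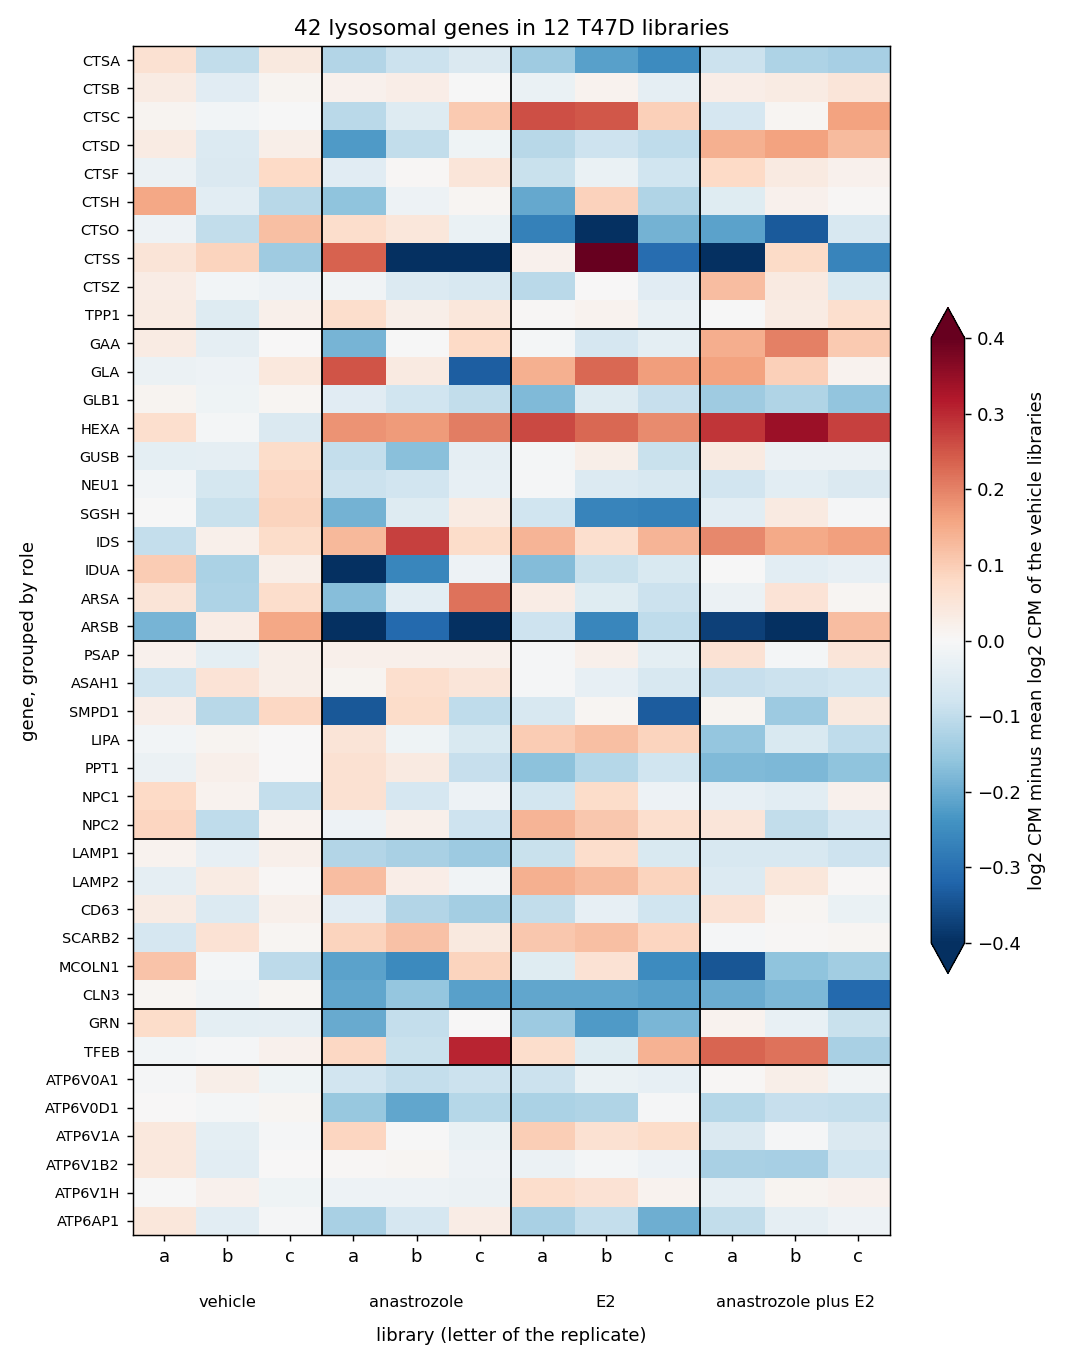
Log2 CPM of each of the 42 genes in each of the 12 libraries, minus the mean of the vehicle libraries (red, higher; blue, lower; values beyond ±0.4 are drawn at the limit), in blocks by role. CLN3 is below vehicle in all 9 treated libraries and HEXA above it.

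Between the combination and vehicle the GC slope was near 0 over all genes (rho of -0.03), with a rho of 0.23 over the 42 members. In all 6 members passed, HEXA, GAA and CTSD higher and CLN3, PPT1 and GLB1 lower, and all 6 kept their call with the GC offset. The level of CTSD in the 3 libraries of the combination was part of the starting point of the set, so its value is a description, and 5 of the other 41 members passed. The background was 2.71% higher and 2.33% lower of all genes tested, and 5.35% and 7.72% of genes reaching 6 log2 CPM. Of the 26 members in that class other than CTSD, 1 was called higher and 3 lower. With the offset LIPA at -0.11 and ATP6V1B2 at -0.12 (each with adjusted p = 0.0457) were called as well. The median over the 42 genes was -0.02.

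HEXA, the alpha subunit of beta-hexosaminidase that degrades gangliosides, read 27.9, 26.5 and 25.6 CPM in vehicle, 30.2, 30.01 and 30.7 in anastrozole, 32.0, 31.3 and 30.4 in E2, and 32.5, 33.8 and 32.2 in the combination. All 9 treated libraries were above vehicle. The difference from vehicle was 0.30 (SE 0.07, adjusted p = 0.00157, edgeR) in the combination, called in all 6 fits with a library left out. It was 0.23 (SE 0.07, adjusted p = 0.0186) with E2, called in 3 of 6, and 0.19 (SE 0.08, adjusted p = 0.248) with anastrozole. HEXA shares 12.9% of its exon bases with a readthrough model on the same strand, which has no row under its name in the deposited table.

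CLN3, a lysosomal membrane protein mutated in juvenile neuronal ceroid lipofuscinosis, read 73.5, 72.5 and 73.5 CPM in vehicle, 63.4, 65.8 and 62.9 in anastrozole, 63.3, 63.3 and 62.9 in E2, and 63.7, 64.6 and 59.05 in the combination. It was lower in every treated library than in any vehicle library. The differences from vehicle were -0.19 (SE 0.06, adjusted p = 0.0392, edgeR) with anastrozole, -0.21 (SE 0.05, adjusted p = 0.000708) with E2 and -0.23 (SE 0.05, adjusted p = 0.000372) with both. With the GC offset they were -0.10, -0.12 and -0.22, and the last was called. All exon bases of CLN3 are also part of a longer readthrough model on the same strand, which has no row under its name in the deposited table.

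PPT1, the thioesterase that strips palmitate from proteins, read 217, 223 and 220 CPM in vehicle, 230, 226 and 207 in anastrozole, 196, 203 and 208 in E2, and 195, 194 and 197 in the combination. Both groups given E2 were below vehicle, and anastrozole alone overlapped it. The differences from vehicle were -0.12 (SE 0.04, adjusted p = 0.011, edgeR) with E2 and -0.17 (SE 0.04, adjusted p = 0.000307) with both. The offset left -0.16 and -0.18, both called.

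GLB1, the lysosomal beta-galactosidase, read 144, 141 and 144 CPM in vehicle, 138, 135 and 133 in anastrozole, 126, 138 and 134 in E2, and 130, 131 and 128 in the combination, with every treated library under every vehicle library. The combination differed from vehicle by -0.14 (SE 0.04, adjusted p = 0.0191, edgeR), in 2 of 6 fits with a library left out. GAA was higher than vehicle by 0.15 (SE 0.04, adjusted p = 0.00244), and by 0.16 with the offset. CTSD stood 0.14 (SE 0.03) above vehicle, and 0.15 with the offset.

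**Figure D5:**
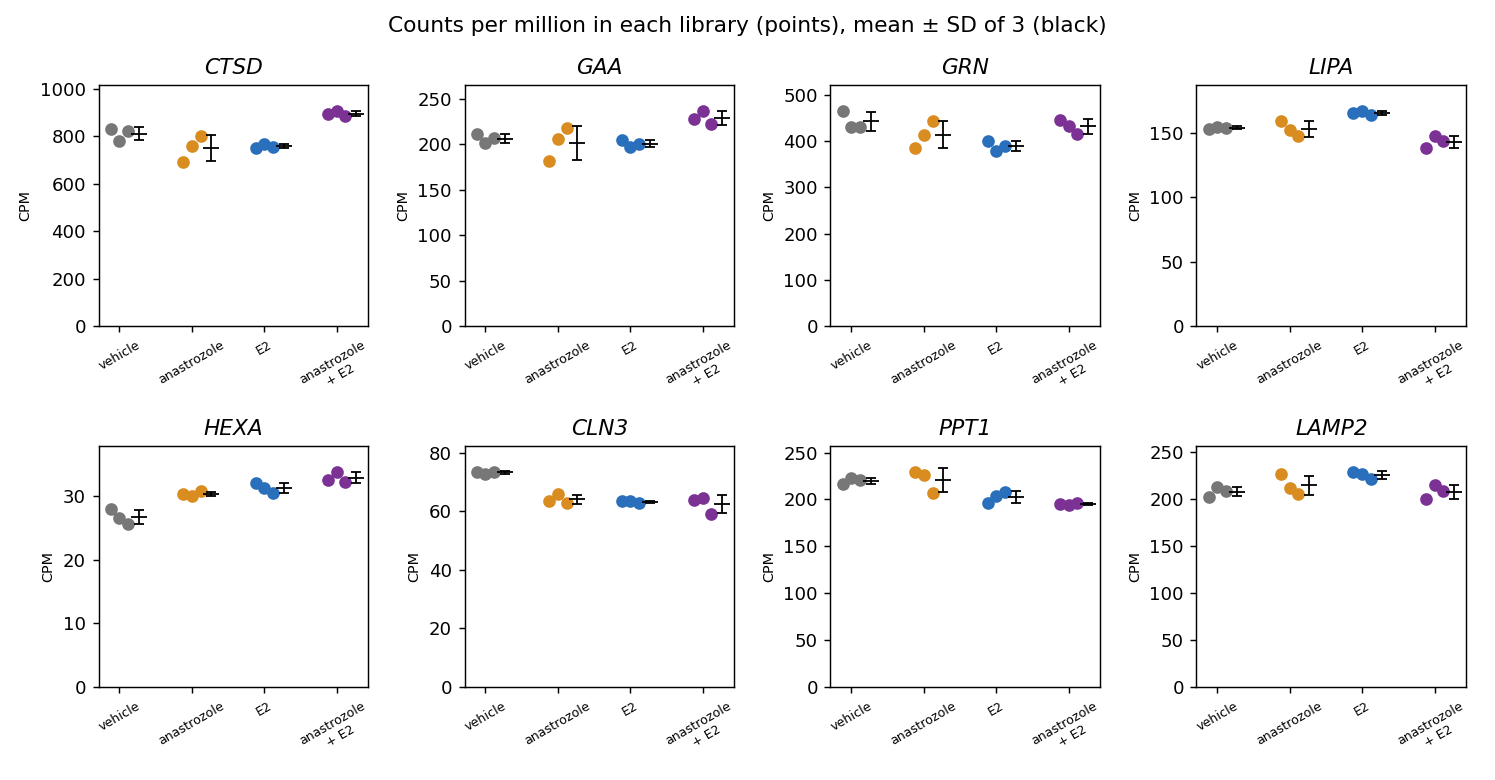
CPM of 8 genes in each library (coloured points, replicates a, b and c from left to right) with the mean and SD of the 3 libraries (black), on axes that start at 0. CTSD and GAA are highest in the combination, LIPA lowest, HEXA above and CLN3 below vehicle in every treated group.

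E2 alone against vehicle changed 10 of the 42 genes, 3 higher and 7 lower. The background was 6.06% higher and 5.95% lower of all genes tested, and 17.4% and 16.5% of genes reaching 6 log2 CPM. Of the 26 members in that class other than CTSD, 2 were called higher and 5 lower. HEXA, LAMP2 (0.12, SE 0.04, adjusted p = 0.011, edgeR) and SCARB2 (0.10, SE 0.04, adjusted p = 0.0373) were higher. SCARB2 was called in 1 and LAMP2 in 3 of 6 fits with a library left out, and with the GC offset they stood at 0.04 and 0.01. Lower were CLN3, SGSH, CTSA, GRN, ATP6AP1, PPT1 and CTSD, the last by -0.10 (SE 0.03), given as a description because the E2 libraries were part of the starting point, so that 9 of the other 41 members passed. CTSA, the carboxypeptidase that protects beta-galactosidase and neuraminidase, read 139, 124 and 137 CPM in vehicle, 123, 126 and 128 in anastrozole, 121, 115 and 112 in E2, and 126, 122 and 122 in the combination. It differed by -0.21 (SE 0.04, adjusted p = 2.65e-05), with E2 under vehicle in every library, and it was called in all 6 fits with a library left out.

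GRN fell by 0.19 (SE 0.03, adjusted p = 3.26e-07, edgeR) with E2 and SGSH by 0.21 (SE 0.06, adjusted p = 0.00516), the latter with libraries that overlapped vehicle. ATP6AP1 read 255, 240 and 246 CPM in vehicle, 225, 235 and 251 in anastrozole, 225, 231 and 215 in E2, and 230, 241 and 243 in the combination, and fell by 0.14 (SE 0.03, adjusted p = 0.00149) with E2. With the GC offset 6 members were called against vehicle, GAA and HEXA higher and CTSA, CTSO, ASAH1 and PPT1 lower. CTSD then stood at 0.03, on the other side of 0, and GRN at -0.07 (adjusted p = 0.147).

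Anastrozole alone against vehicle changed 1 of 42 genes, CLN3, against a background of 1.40% higher and 2.27% lower of all genes tested, and of 4.22% and 6.82% of genes reaching 6 log2 CPM. Of the 26 members in that class other than CTSD, 0 were called higher and 1 lower. The count of called members was 5, all lower, without anastrozole replicate c and 0 without any other library of the 6, vehicle libraries included. With all libraries 10 members had an unadjusted p under 0.05 (edgeR). The share of all genes at that p is not given here, so this count has no background beside it. CTSD differed from vehicle by -0.11 (SE 0.04, adjusted p = 0.106, edgeR), and by 0.01 with the offset. In CTSD, GAA and GRN the anastrozole libraries had the same order, lowest in a and highest in c, and in LIPA the reverse.

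Adding E2 to anastrozole changed 3 of 42 genes, with CTSD at 0.25 (SE 0.04) and GAA at 0.18 (SE 0.04, adjusted p = 0.00297, edgeR) higher and PPT1 at -0.18 (SE 0.04, adjusted p = 0.00355) lower. The background was 1.71% higher and 1.18% lower of all genes tested, and 4.12% and 4.66% of genes reaching 6 log2 CPM. Of the 26 members in that class other than CTSD, 1 was called higher and 1 lower. The value of CTSD is a description here too, and 2 of the other 41 members passed. GAA was called in 4 of 6 fits with a library left out and PPT1 in 3. With the offset PPT1 (-0.15) was called, CTSD stood at 0.14 and GAA at 0.06. These comparisons share libraries with each other, so their values are not independent.

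Whether the effect of anastrozole differed with and without E2 was tested by the interaction term over all 12 libraries, which compares the combination minus E2 with anastrozole minus vehicle. In all 9 members passed, CTSD, SGSH, GRN, GAA, CD63 and CTSA with a higher and LIPA, SCARB2 and LAMP2 with a lower term, against a background of 5.93% higher and 4.93% lower of all genes tested, and 14.8% and 16.9% of genes reaching 6 log2 CPM. CTSD had the largest term, 0.35 (SE 0.05), which contains the difference that was the starting point of the set, and without it 8 of 41 members passed. Of the 26 other members reaching 6 log2 CPM, 4 had a higher and 3 a lower term. CD63 read 253, 238 and 251 CPM in vehicle, 239, 227 and 225 in anastrozole, 231, 241 and 233 in E2, and 257, 248 and 242 in the combination, with a term of 0.18 (SE 0.06, adjusted p = 0.0134). Over all genes this term correlated with GC content with rho of 0.72, and over the members with rho of 0.71. With the GC offset 0 of the 42 passed in the edgeR test and 2 had an unadjusted p under 0.05. CTSA, at 0.18 without the offset, was called in 3 of 12 fits with a library left out. With the offset CD63 stood at 0.13 (adjusted p = 0.0904, edgeR) and CTSD at 0.11. Without the offset DESeq2 called 5 members.

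The members most like CTSD over the 12 libraries, by Pearson correlation of log2 CPM, were GAA (r of 0.93, Spearman's rho of 0.89), IDUA (0.74 and 0.76) and CTSF (0.68 and 0.73). Those least like it were LIPA (-0.78 and -0.76), SCARB2 (-0.75 and -0.82) and ATP6V1A (-0.71 and -0.78). All are computed on the same 12 libraries in 4 groups and are given as a description. IDUA, which removes iduronic acid from glycosaminoglycans, read 15.9, 13.5 and 15.01 CPM in vehicle, 10.96, 12.3 and 14.6 in anastrozole, 13.1, 13.9 and 14.2 in E2, and 14.7, 14.3 and 14.4 in the combination. It has the most GC-rich transcript of the set, at 67.4%. With the GC trend of each library removed, r with CTSD was 0.75 for GAA, 0.10 for IDUA, 0.13 for CTSF, -0.64 for LIPA, -0.27 for SCARB2 and -0.31 for ATP6V1A. The members most like CTSD were then GAA and HEXA (0.68 in place of 0.25), and those least like it ATP6V1B2 (-0.83), CLN3 and GLB1 (both -0.70). Within groups, after subtraction of each group's mean, r with CTSD was 0.91 for GAA, 0.93 for IDUA and 0.67 for CTSF, and 0.58, 0.32 and 0.03 with the trend removed.

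The other lysosomal genes, from lists of 33 hydrolases and activators, 22 membrane proteins and transporters, 16 V-ATPase subunits, 22 sorting factors, 19 nutrient-sensing factors and 26 autophagy genes, also moved in both directions between the combination and E2. All had reads except the osteoclast subunit ATP6V0D2, which was at 0 in every library. Of the 33 hydrolases 1 (LGMN at 0.15) was called higher, 3 of 22 membrane proteins were higher (TPCN2 at 0.23, TPCN1 at 0.22, ABCA2) and 1 lower (OSTM1 at -0.26), and 2 of 15 V-ATPase subunits were lower (ATP6V1C1 at -0.12 and ATP6AP2 at -0.10). Of the sorting factors 2 of 22 were lower (SORT1 and AP1G1, both at -0.11). TSC2 was higher (0.17) and FNIP1 lower (-0.15) among the 19 nutrient-sensing factors, and ULK1 higher (0.16) among the 26 autophagy genes. These counts stand beside the 3.23% higher and 3.51% lower of all genes tested, and the 8.91% and 14.6% of genes reaching 6 log2 CPM. List medians ran from -0.03 to 0.01. With the offset 1 gene of these lists was called.

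Among nutrient-sensing factors E2 raised RRAGD, a Rag GTPase that recruits the growth kinase complex mTORC1 to the lysosome, from 45.2 ± 1.17 CPM in vehicle to 60.3 ± 3.30 CPM (SD, n = 3), by 0.41 on the log2 scale (adjusted p = 2.67e-11, edgeR). RHEB, the GTPase that activates mTORC1 there, rose from 68.4 ± 2.28 to 82.0 ± 1.67 CPM, by 0.26 (adjusted p = 4.69e-06). Both held with the GC offset, at 0.35 and 0.25, and in the combination against vehicle, at 0.27 and 0.24. TFE3, a relative of TFEB, was at 76.6 ± 3.82 CPM in vehicle and 80.2 ± 0.93 CPM in E2. In this list 3 of 19 genes were higher and 3 lower with E2, the latter TSC2 at -0.22, RPTOR at -0.20 and LAMTOR1 at -0.16, none of which was called with the offset. Among the 26 autophagy genes 5 were higher, with UVRAG at 0.23 and OPTN at 0.19 among them, and 2 lower, ATG9A at -0.16 and MAP1LC3A. The shares for E2 against vehicle were 6.06% higher and 5.95% lower of all genes tested, and 17.4% and 16.5% of genes reaching 6 log2 CPM. MAP1LC3A, the largest change of that list at -2.07, was under 1 CPM in every library but anastrozole replicate a, at 1.08 CPM.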

How the data were processed

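RNA was prepared with TRIzol and libraries with NuGEN Encore reagents. Per the labels, reads were aligned to hg19 with TopHat2 2.0.14 and Bowtie2 2.2.6 and counted with HTSeq, and the authors deposited whole-number counts per gene symbol in 1 table. Lines that name no gene held 66.5 to 67.3% of the table and were left out. Counts were scaled by TMM and tested with edgeR 4.0.16 (quasi-likelihood, robust, 2-sided) under R 4.3.3, after removal of 4238 genes at 0 in all libraries, leaving 21132. Each pair was fitted on its own 6 libraries and the interaction on all 12. SE is the log2 fold change over the root of F. GC content and length are those of the canonical GENCODE v44 transcript on GRCh37. The GC offset used the lowess trend (span 0.5) of each library over genes with at least 3 log2 CPM. Other settings used DESeq2 1.42.0, limma 3.58.1, other scalings, a low-count filter, and left out each library. Scripts were tested on simulated counts. Members, lists and tests were chosen with earlier results of these data known. Per-library values are given for CTSD, for members past the threshold (up to 12 per comparison, largest change first) and for the 3 members most and least correlated with CTSD. From the other lists, up to 3 genes past the threshold with the largest change are named. Genes outside that rule were named after their values were seen. Depth of 9914253 to 17009776 reads sets the counting error, and 3 counts were worth 0.18 to 0.30 CPM.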

Additional observations from a re-analysis of the deposited data

Results flagged for a closer look

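The effect of anastrozole differed with and without E2 by the interaction test in 9 of the 42 genes (edgeR, adjusted p under 0.05). The term was 0.35 for CTSD, 0.27 for SGSH, 0.25 for GRN, 0.22 for GAA, 0.18 for CD63 and 0.18 for CTSA, and -0.20 for LIPA, -0.18 for SCARB2 and -0.17 for LAMP2, all on the log2 scale. Of all genes tested, 5.93% had a higher and 4.93% a lower term, and of the genes reaching 6 log2 CPM, the class of 8 of the 9 members, 14.8% and 16.9%. The term of CTSD contains the difference from E2 that was the starting point of the set, and without it the counts were 8 of 41 members and 7 of 26 in that class. With each library's GC trend offset, 0 of the 42 passed the edgeR test and 2 had an unadjusted p under 0.05. The shares of all genes given here are without the offset, and the part of the trend in these results was not tested.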

How the results depend on the processing

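For the combination against E2 (10 members called), 4 were called by DESeq2, 4 by limma-voom, 5 with all 12 libraries in the fit and 2 with the GC offset, and 5 to 9 when a library was left out (5 without E2 replicate a, 6 without E2 replicate c or without replicate b or c of the combination). For anastrozole against vehicle (1), 0 were called with a low-count filter, by DESeq2, by limma-voom or with the GC offset, 4 with all 12 libraries in the fit, and 0 to 5 when a library was left out. For E2 against vehicle (10), DESeq2 called 6 and the GC offset 6, and leaving out a library gave 5 to 13 (5 without vehicle replicate c or E2 replicate a). For the combination against vehicle (6), leaving out a library gave 4 to 7. For the combination against anastrozole (3), DESeq2 and limma-voom each called 1, and leaving out a library gave 1 to 5 (1 without anastrozole replicate a or replicate b of the combination, 5 without anastrozole replicate c). The interaction (9) gave 5 with DESeq2, 0 with the GC offset and 4 to 12 when a library was left out (4 without anastrozole replicate a, 5 without vehicle replicate a or c or E2 replicate b). Beside these counts of 0, the edgeR test had 10 members at an unadjusted p under 0.05 for anastrozole against vehicle and 2 for the interaction with the offset. Where a fit left a group with fewer libraries its power also fell. All counts in this section are of members alone. The shares of all genes under the same settings, or at an unadjusted p, are not given here. Whether the members shifted more than other genes was therefore not tested.

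With the GC offset, of 252 values (42 members in 6 comparisons) 57 changed sign, 3 of them among the 39 called, and of the 40 single-gene results followed 4 did: CTSD against vehicle to 0.01213 with anastrozole and 0.03185 with E2, the interaction of GAA to -0.03792 and of LAMP2 to 0.01618. The labels do not say that a letter marks a shared culture or day, and in no comparison did all 3 same-letter correlations of deviations exceed 0.1 (range -0.09 to 0.32), so the letters were not used as pairs. In the combination and E2, and likewise in the combination and vehicle, 4 of 6 libraries were nonetheless closest to their own letter, a hint from the data and not the design. The replicate block gave 10, 1, 9, 10, 3 and 8 calls in the order above, with ATP6V1B2, CTSA, IDS and LIPA gained between the combination and vehicle, SCARB2 lost for E2 against vehicle (adjusted p = 0.0755) and CTSA for the interaction (adjusted p = 0.0580), and with the GC offset 2, 0, 6, 10, 2 and 0, with the same 4 signs turned (0.01211, 0.03179, -0.03838 and 0.01594). Of the 40 single-gene results, other size factors took 1 below the threshold, library size alone 2, the low-count filter 3, limma-voom 16, DESeq2 19 and the GC offset 26, those that changed sign included. The causes of these shifts were not tested.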
